A study of Mus musculus with 5 samples.

Results

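The mitochondrial protein import machinery and the chaperones and proteases of the mitochondrial matrix were examined in ribosome-bound RNA of midbrain dopaminergic neurons with and without Esrrg, which encodes ERRγ, an estrogen-related receptor. The set held the 49 protein-coding genes, of 53700 gene IDs in the table, that were named Tomm (10 genes), Timm (16 genes) or were 1 of 23 further named genes for import motor, assembly, processing, folding and quality control factors. Membership used names alone and no measured value, although the names were chosen with earlier results of these data known. All mice were C57BL/6, aged 4 months, carried a Cre-dependent EGFP-tagged ribosomal protein L10a and received the virus AAV:ThCre in the midbrain, in which the tyrosine hydroxylase promoter drives Cre recombinase. Esrrg WT mice had unmodified Esrrg alleles, whereas in Esrrg Flox mice the same Cre removed exon 2 of Esrrg, which encodes the DNA-binding domain. Tissue was taken 1 month after injection, the midbrains of several animals were pooled for each library, and RNA bound to tagged ribosomes was immunoprecipitated (BAC-TRAP) and sequenced in 3 libraries of Esrrg WT, numbered 2, 3 and 4, and 2 of Esrrg Flox, numbered 2 and 4. The rest of the floxed gene stays in place and can still be read into RNA, and cells that the virus did not reach kept both the intact gene and untagged ribosomes.

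Most mitochondrial proteins are made in the cytosol and enter through the TOM complex of the outer membrane. Precursors with a presequence then pass the TIM23 channel and are pulled in by a motor around the chaperone mtHsp70, metabolite carriers and other hydrophobic proteins are handed by small Tim chaperones to TIM22, and barrel proteins are inserted by SAM. In the matrix the presequence is cut off, the protein is folded by the Hsp60 and Hsp10 chaperonin, and proteases remove what fails to fold. Dopaminergic neurons have long, densely branched axons and depend on mitochondrial supply, and ERR receptors are known as activators of nuclear genes for mitochondrial proteins.

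The 5 libraries held between 20635855 and 23105058 counts assigned to genes, and 3 counts, the most that a count of 0 allows, corresponded to 0.130 to 0.145 CPM. Levels are given as normalized counts, that is, counts divided by the DESeq2 size factor of the library. Esrrg itself held 1763, 1643 and 1726 normalized counts in the WT libraries and 1504 and 1170.1 in the Flox libraries. Both Flox libraries lay below all WT libraries, but the difference of the whole gene did not pass at an adjusted p of 0.05 (log2 fold change -0.35 with SE 0.133, adjusted p = 0.0753 by DESeq2). The 11 dopaminergic marker genes summed to between 51078 and 60871 normalized counts in WT and to 52075 and 54810.4 in Flox, none was at 0 and 1 of 11 was called lower. Markers of other cells were also present: the 8 oligodendrocyte markers summed to between 110260.0 and 163134 in WT and to 125766 and 149824 in Flox, which exceeded the dopaminergic sum, and the 8 astrocyte markers to between 44091 and 67470.4 in WT and 47382 and 63561 in Flox. The 12 microglial markers moved with genotype, from between 1545 and 2931 in WT to 5211 and 11162 in Flox, with 10 of 12 called higher, and their part in the differences given here was not tested. The 8 endothelial markers moved as well, from between 128 and 288 in WT to 299.7 and 770.4 in Flox (3 of 8 called higher), and the 3 GABAergic markers went from between 19679 and 20439 to 18003 and 16102 (1 called lower). Flox replicate 4 stood furthest from the other libraries, and it was further from the WT mean than Flox replicate 2 in 35 of the 46 import genes tested, against 70.2% of all genes.

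Of the 49 genes, 46 had enough reads for an adjusted p. DESeq2 called 3 higher in Flox at an adjusted p under 0.05 (Tomm7, Timm13 and Pam16; 6.52%), against 4.20% of all 15724 genes tested, and 1 lower (Tomm40l; 2.17%), against 4.05%. None of the 4 reached a 1.5-fold difference, which 1.77% of all genes passed in the higher and 1.41% in the lower direction. At an unadjusted p under 0.05 there were 8 higher and 7 lower, against 9.74% and 10.6% of all genes, and edgeR called none of the 46 (15 at an unadjusted p under 0.05), against 1.02% higher and 0.628% lower of 16711 genes. The log2 fold changes, Flox minus WT, were split evenly, 23 above and 23 below 0, with a median of 0.0088 beside -0.0063 over all genes, and 28 of 46 were smaller than 0.2 in either direction. The quartiles over all genes were -0.19 and 0.20. Both Flox libraries lay above all WT libraries in 14 genes and below them in 14 (30.4% each, against 19.9% and 22.5% of all genes). The other 18 did neither, which is called overlap here. In bulk RNA, fewer contributing cells and less RNA per cell cannot be told apart. Of the 3 genes without an adjusted p, Timm8a2, a small Tim paralogue, had no count in any library, Tomm6 had 1 count in Flox replicate 2 alone, and Tomm20l, a paralogue of the receptor gene Tomm20, had 4, 0 and 1 counts in WT and 6 and 4 in Flox. The exons of Tomm6, a small TOM subunit, share 84.2% of their bases with other annotated genes, and reads that overlap several genes are not counted. Overlap also exceeded 20% in Tomm40l, Mtx1 (30.1%), Timm10b (22.1%) and Pmpca (20.4%), and was absent in 27 of the 49.

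**Figure D1:**
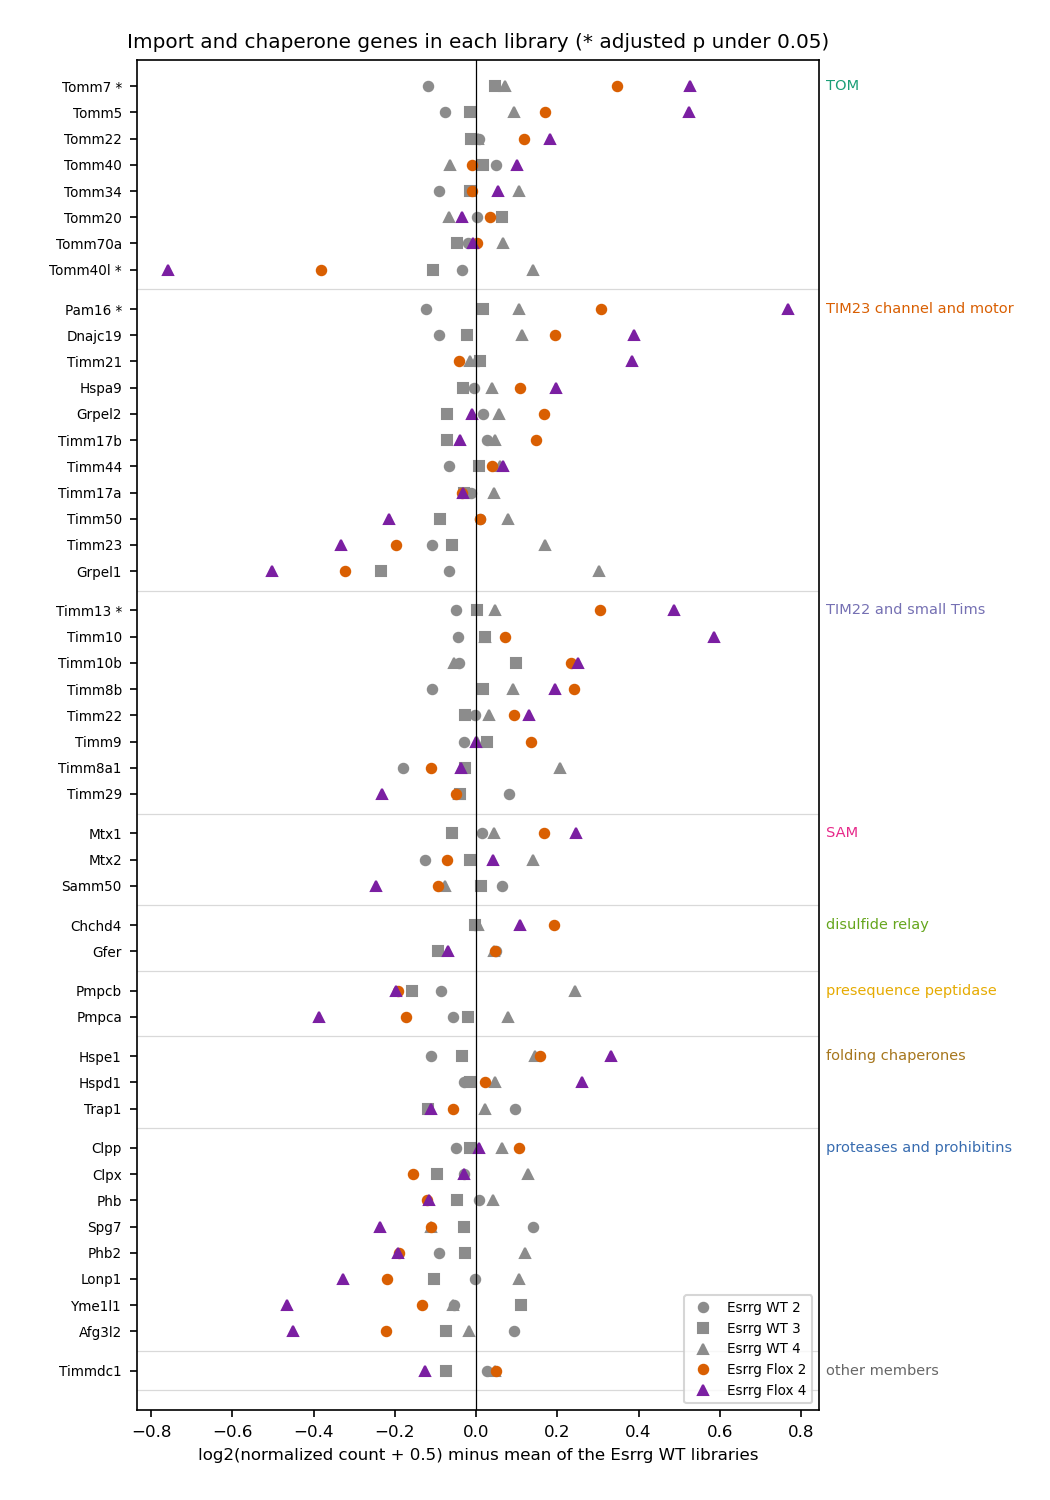
Each row is 1 import or chaperone gene and each point 1 library, as log2(normalized count + 0.5) minus the mean of the 3 Esrrg WT libraries (grey), with Flox replicate 2 in orange and Flox replicate 4 in purple. Rows are grouped by role and asterisks mark the 4 genes called by DESeq2. In 18 rows the Flox points do not both lie on the same side of all WT points.

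The TOM genes held 1 call in each direction. Tomm7 (ENSMUSG00000028998.7), a small TOM subunit that modulates assembly of the complex, had 2682, 3009 and 3060.1 normalized counts in WT and 3707 and 4198 in Flox. Both Flox libraries exceeded all WT libraries, and Tomm7 was called higher (log2 fold change 0.44 with SE 0.113, adjusted p = 0.0043 by DESeq2). Tomm40l (ENSMUSG00000005674.10), a paralogue of the channel gene Tomm40, had 389.8, 371 and 440.0 normalized counts in the 3 WT pools and 306 and 236 in the 2 Flox pools. It was lower in both Flox libraries (log2 fold change -0.56 with SE 0.183, adjusted p = 0.0328 by DESeq2), and 64.3% of its exon bases lie under exons of Nr1i3 on the other strand, which these unstranded libraries cannot separate. The channel gene Tomm40 itself had 3127, 3058 and 2891 normalized counts in WT and 3003 and 3245 in Flox. The genotypes overlapped (log2 fold change 0.05 with SE 0.102, adjusted p = 0.877 by DESeq2). The main presequence receptor gene Tomm20 had 7598, 7921 and 7244 normalized counts in the WT libraries and 7760.1 and 7398 in the Flox libraries, again with overlap and a log2 fold change of -0.0016 (DESeq2 adjusted p = 0.996). Tomm5, another small subunit, held 1274, 1328 and 1432 normalized counts in WT and 1510.1 and 1933 in Flox, above WT in both Flox libraries without passing the test (log2 fold change 0.36, DESeq2 adjusted p = 0.0834). Its log2 fold change was 0.16 without Flox replicate 4 and 0.12 with the trend of fold change on transcript length removed. The central receptor and organizer gene Tomm22 was at 0.15, the carrier receptor gene Tomm70a at -0.0038 and Tomm34, a cytosolic cochaperone gene named with the complex, at 0.02 on the log2 scale, none of them called. Over the 8 TOM genes tested the median log2 fold change was 0.03. Of them, 1 was called higher and 1 lower (12.5% each, against 4.20% and 4.05% of all genes).

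In the TIM23 group, 1 of 11 genes was called higher (9.09%, against 4.20% of all genes) and none lower (against 4.05%). The median log2 fold change was 0.06. Pam16 (ENSMUSG00000014301.14), the J-like subunit that restrains the J-protein of the import motor, had 1059, 1168 and 1241 normalized counts in the 3 WT pools and 1428 and 1964 in the 2 Flox pools. Pam16 had the largest positive log2 fold change among the 46 genes (log2 fold change 0.55 with SE 0.152, adjusted p = 0.0082 by DESeq2), and Flox replicate 4 stood well above Flox replicate 2. Leaving out Flox replicate 4 gave Pam16 a log2 fold change of 0.30, against 0.55 with all libraries. Exons of Glis2 on the other strand cover 18.7% of its exon bases. Dnajc19, the gene of that J-protein, had 729, 764 and 841 normalized counts in WT and 889 and 1017 in Flox. Both Flox libraries were above WT, but Dnajc19 was not called (log2 fold change 0.29 with SE 0.135, adjusted p = 0.181 by DESeq2). Hspa9, which encodes mtHsp70, had 6449, 6332 and 6648 normalized counts in the WT libraries and 6982 and 7425 in the Flox libraries. Both Flox libraries lay just above WT, without a call (log2 fold change 0.15 with SE 0.0931, adjusted p = 0.365 by DESeq2). The channel-forming subunit gene Timm23 had 1782, 1843 and 2161 normalized counts in WT and 1676 and 1527 in Flox. Here both Flox libraries lay below all WT libraries, without a call (log2 fold change -0.27 with SE 0.126, adjusted p = 0.192 by DESeq2). After the trend of fold change on transcript length was removed, Timm23 was called lower (log2 fold change -0.41, DESeq2 adjusted p = 0.0154). Timm44, which tethers mtHsp70 to the channel, had 899.7, 947 and 982 normalized counts in the 3 WT pools and 968 and 986 in the 2 Flox pools, with overlap and a log2 fold change of 0.05 (DESeq2 adjusted p = 0.883). The nucleotide exchange factor of mtHsp70 is encoded by Grpel1 and its paralogue Grpel2. Grpel1 had 959, 854 and 1239 normalized counts in WT and 803 and 709 in Flox, and Grpel2 had 381, 359 and 392 normalized counts in the WT libraries and 424 and 375 in the Flox libraries. Grpel1 was below WT in both Flox libraries and Grpel2 overlapped (log2 fold changes -0.43 and 0.08, DESeq2 adjusted p = 0.0956 and 0.855). The channel partners Timm17a and Timm17b were at -0.03 and 0.06, the receptor subunit gene Timm50 at -0.10 and Timm21, which links TIM23 to TOM and the respiratory chain, at 0.19 on the log2 scale, none called.

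**Figure D2:**
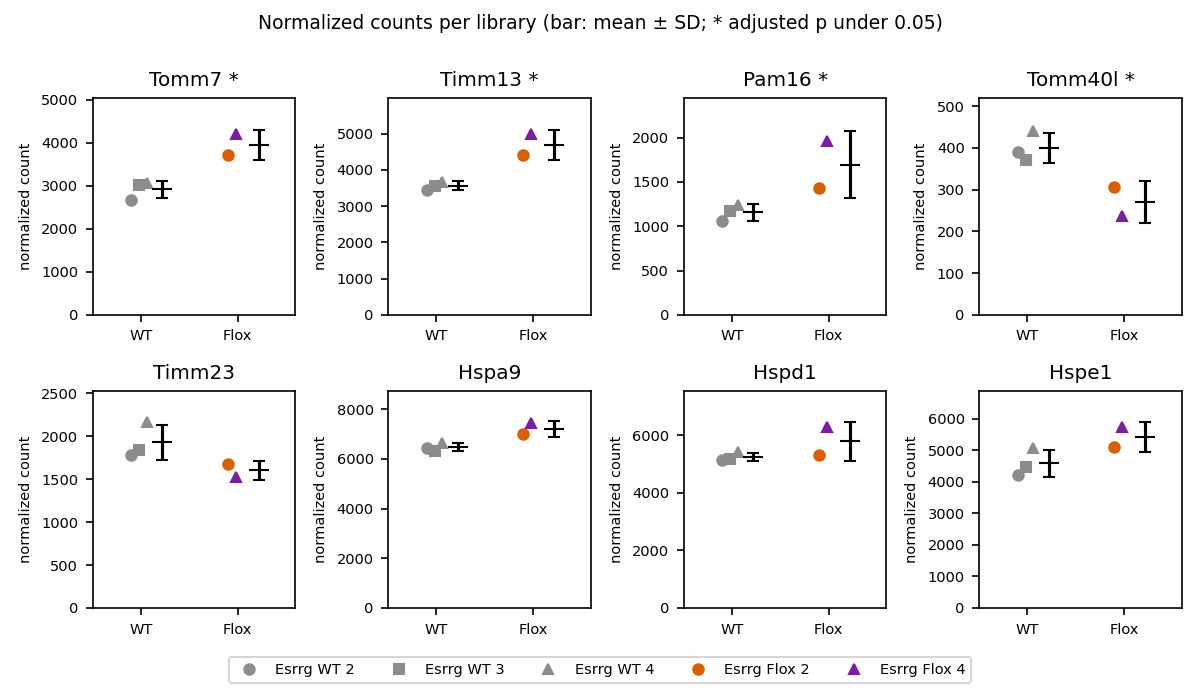
Normalized counts (y axis, from 0) of the 4 called genes and of Timm23, Hspa9, Hspd1 and Hspe1 in each library, with WT in grey and Flox in orange (replicate 2) and purple (replicate 4); black bars are mean ± SD. Flox lies above WT for Tomm7, Timm13 and Pam16 and below it for Tomm40l, with Flox replicate 4 the more distant in each.

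Of the 8 genes tested of the small Tims and the TIM22 complex, 1 was called higher (12.5%, against 4.20% of all genes) and none lower (against 4.05%). In 5 of them both Flox libraries were above WT (62.5%, against 19.9% of all genes) and in 1 both were below (12.5%, against 22.5%). The median log2 fold change was 0.16. Timm13 (ENSMUSG00000020219.8), which pairs with Timm8 proteins to guard hydrophobic precursors in the intermembrane space, had 3441, 3567 and 3678 normalized counts in WT and 4398 and 4990.4 in Flox. The groups did not overlap, and Timm13 was called higher (log2 fold change 0.40 with SE 0.105, adjusted p = 0.00519 by DESeq2). Its partner genes are Timm8a1, whose human counterpart is mutated in deafness-dystonia syndrome, and Timm8b. Timm8a1 had 211, 234 and 276 normalized counts in the 3 WT pools and 221 and 233 in the 2 Flox pools, and Timm8b had 2638, 2882 and 3032 normalized counts in WT and 3363 and 3255 in Flox. Timm8b was above WT in both Flox libraries and Timm8a1 overlapped, and neither was called (log2 fold changes 0.21 and -0.08, DESeq2 adjusted p = 0.229 and 0.885). The other small Tim hexamer is formed by Timm9 and Timm10. Timm9 had 1039, 1081 and 1062 normalized counts in the WT libraries and 1164 and 1059.7 in the Flox libraries, with overlap (log2 fold change 0.07, DESeq2 adjusted p = 0.83). Timm10 had 914, 958 and 957 normalized counts in WT and 991 and 1415 in Flox. Its log2 fold change of 0.35 (DESeq2 adjusted p = 0.164) was 0.07 without Flox replicate 4. Timm10b, which docks the hexamer on TIM22, was at 0.24, the insertion channel gene Timm22 at 0.11 and its metazoan-specific partner gene Timm29 at -0.14 on the log2 scale, with no call. Of the SAM genes, Samm50, the barrel-inserting core, had 2931, 2826 and 2657 normalized counts in the 3 WT pools and 2625 and 2363 in the 2 Flox pools, below WT in both Flox libraries but not called (log2 fold change -0.17 with SE 0.108, adjusted p = 0.405 by DESeq2). The metaxin genes Mtx1 (495, 469.8 and 505 normalized counts in WT and 550.4 and 581 in Flox) and Mtx2 (1096, 1184 and 1319 normalized counts in the WT libraries and 1137 and 1232 in the Flox libraries) were at log2 fold changes of 0.21 and -0.02 (DESeq2 adjusted p = 0.443 and 0.964). Mtx1 alone of the pair had both Flox libraries above WT. The disulfide relay, in which Chchd4 oxidizes incoming proteins and Gfer reoxidizes Chchd4, differed by 0.15 and -0.01, and Timmdc1, an assembly factor of complex I that carries the Timm name, by -0.04 on the log2 scale, without a call.

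Presequence removal and protein quality control genes were mostly below WT in value, and none was called. Pmpca, a subunit gene of the presequence peptidase, had 1051, 1079 and 1155 normalized counts in WT and 971 and 837 in Flox, and Pmpcb, the catalytic subunit gene, had 1082, 1029 and 1359 normalized counts in the 3 WT pools and 1004 and 1002 in the 2 Flox pools. Both Flox libraries were below all WT libraries in each (log2 fold changes -0.28 and -0.21, DESeq2 adjusted p = 0.182 and 0.471). Among the 8 genes of proteases and prohibitins, 7 had a negative log2 fold change, 6 had both Flox libraries below WT and none above (against 22.5% and 19.9% of all genes), and the median was -0.19. Lonp1, the main soluble matrix protease, had 2751, 2565 and 2965 normalized counts in WT and 2365 and 2196 in Flox. The groups did not overlap, and the difference was not called (log2 fold change -0.28 with SE 0.112, adjusted p = 0.109 by DESeq2). Afg3l2 and Spg7 form the matrix-facing protease of the inner membrane. Afg3l2 had 2237, 1992 and 2072 normalized counts in the WT libraries and 1799 and 1536 in the Flox libraries, the nearest to a call among the lower genes after Tomm40l (log2 fold change -0.33 with SE 0.12, adjusted p = 0.0611 by DESeq2). Spg7 had 1034, 919 and 869 normalized counts in WT and 868 and 796 in Flox, with a log2 fold change of -0.18 (DESeq2 adjusted p = 0.517). Yme1l1, the protease facing the intermembrane space, was at -0.29 (DESeq2 adjusted p = 0.189) on the log2 scale. Clpp, the proteolytic chamber of ClpXP, had 3023, 3092 and 3269 normalized counts in the 3 WT pools and 3366 and 3143 in the 2 Flox pools, and its unfoldase gene Clpx had 881, 841 and 983 normalized counts in WT and 808 and 881 in Flox. Both overlapped between genotypes (log2 fold changes 0.06 and -0.09, DESeq2 adjusted p = 0.835 and 0.78). The prohibitin genes, whose products form ring scaffolds around the protease of Afg3l2 and Spg7, were at log2 fold changes of -0.12 (Phb, 3774, 3635 and 3865 normalized counts in the WT libraries and 3456 and 3465 in the Flox libraries) and -0.19 (Phb2, 1601, 1675 and 1855 normalized counts in WT and 1497 and 1493 in Flox), below WT in both Flox libraries without a call.

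None of the 3 matrix folding chaperone genes was called, and their median log2 fold change was 0.15. Hspd1, the gene of Hsp60, had 5129, 5181 and 5404 normalized counts in the 3 WT pools and 5316 and 6271 in the 2 Flox pools. Flox replicate 2 lay within the WT values and Flox replicate 4 above them (log2 fold change 0.15 with SE 0.108, adjusted p = 0.503 by DESeq2). Its cofactor gene Hspe1 (Hsp10) had 4235, 4469.6 and 5063 normalized counts in WT and 5100.0 and 5757 in Flox, with both Flox libraries above WT, Flox replicate 2 by little (log2 fold change 0.24 with SE 0.116, adjusted p = 0.208 by DESeq2). Trap1, an Hsp90-type chaperone, was at -0.09 (DESeq2 adjusted p = 0.794) on the log2 scale.

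ERR receptors are known to bind an extended element, written TNAAGGTCA, which contains the shorter core AAGGTCA. Both were searched on both strands from 250 bases before to 50 bases after the RefSeq start of each gene (GRCm38.p6), which was found for 43 of the 49 genes. The long form was in 1 of the 43 (2.33%; Timm8b) and in 1.43% of 27025 genes, and the core in 6 of 43 (14.0%) and in 5.38% of all genes. The 6 genes were Timm8b, Hspd1, Hspe1, Timm44, Timm23 and Trap1, and none of them was called. Hspd1 and Hspe1 are transcribed head to head from starts 216 bases apart and share a single copy of the core. These 6 sites are shown because they are the matches in the set. Each is read along the gene's own strand, 5′ to 3′, with the match in capitals (the long form for Timm8b, the core or, for Hspd1, its reverse complement for the others).
Timm8b, chr9:50603795-50603824 (+): tttcgagggcTCAAGGTCActctacaaccc
Hspe1, chr1:55088089-55088118 (+): cccgtgggtgaAAGGTCAagtggcgtcatt
Hspd1, chr1:55088088-55088117 (-): atgacgccactTGACCTTtcacccacggga
Timm44, chr8:4275892-4275921 (-): agcgacgcaggAAGGTCAcacgggctcttc
Timm23, chr14:32201859-32201888 (-): ccggcgcccggAAGGTCAgcgtggtgaagg
Trap1, chr16:4077935-4077964 (-): cactgagatccAAGGTCAaaaagtacagtc

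The match began 96 bases before the start in Timm8b, 48 in Hspe1, 174 in Hspd1 and 143 in Trap1, spanned the start in Timm44 and began at base 14 after it in Timm23. The log2 fold changes of the 6 genes ran from -0.27 (Timm23) to 0.24 (Hspe1). A match describes these letters only and is neither a binding site nor a cause. Of the 4 called genes, Timm13 and Pam16 had a promoter entry and no match in this window, and Tomm7 and Tomm40l were not matched to an entry.

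Levels between genes were compared as normalized counts per kilobase of the longest annotated transcript. In WT the highest level was that of Timm8b, at 5503 ± 384 per kilobase (SD over 3 WT libraries), followed by Hspe1 (4761 ± 443), Clpp (3182 ± 129), Timm13 (2908 ± 96.8) and Tomm7 (2593), whereas the median of all genes tested was 112. The lowest of the 46 tested was Tomm40l, at 84.9 ± 7.58, after Timm10b, Timm21 and Grpel2. Reads from the 64.3% of Tomm40l exon bases shared with Nr1i3 are not counted, although the full length is used. Its level is therefore understated and its last place is uncertain. The WT ranges of neighbours in this order were separate in 14 of 48 steps. Timm8b and Hspe1 overlapped, while Clpp, Timm13 and Tomm7 were each separate from the next gene. Summed over roles on this scale, the small Tim and TIM22 genes were 18.7% higher in Flox (11701 ± 512 across 3 WT libraries and 13886 ± 556 across 2 Flox libraries, mean ± SD) and the TOM genes 15.5% higher (10671 ± 299 and 12328 ± 806), and in each the Flox values lay above every WT value. The difference was -15.6% for the presequence peptidase (629 ± 58.8 and 531 ± 30.6) and -5.48% for proteases and prohibitins (7967 ± 263 and 7531 ± 262), with both Flox libraries below WT. It was 14.7% for the folding chaperones, 3.61% for the TIM23 group and -2.48% for Timmdc1, each with overlap. SAM differed by -1.94%, with both Flox libraries below WT, and the disulfide relay by 5.59%, with both above. The sum over the whole set was 9.62% higher in Flox, with both Flox libraries above WT. These sums carry no test and are led by the few most abundant, short transcripts.

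**Figure D3:**
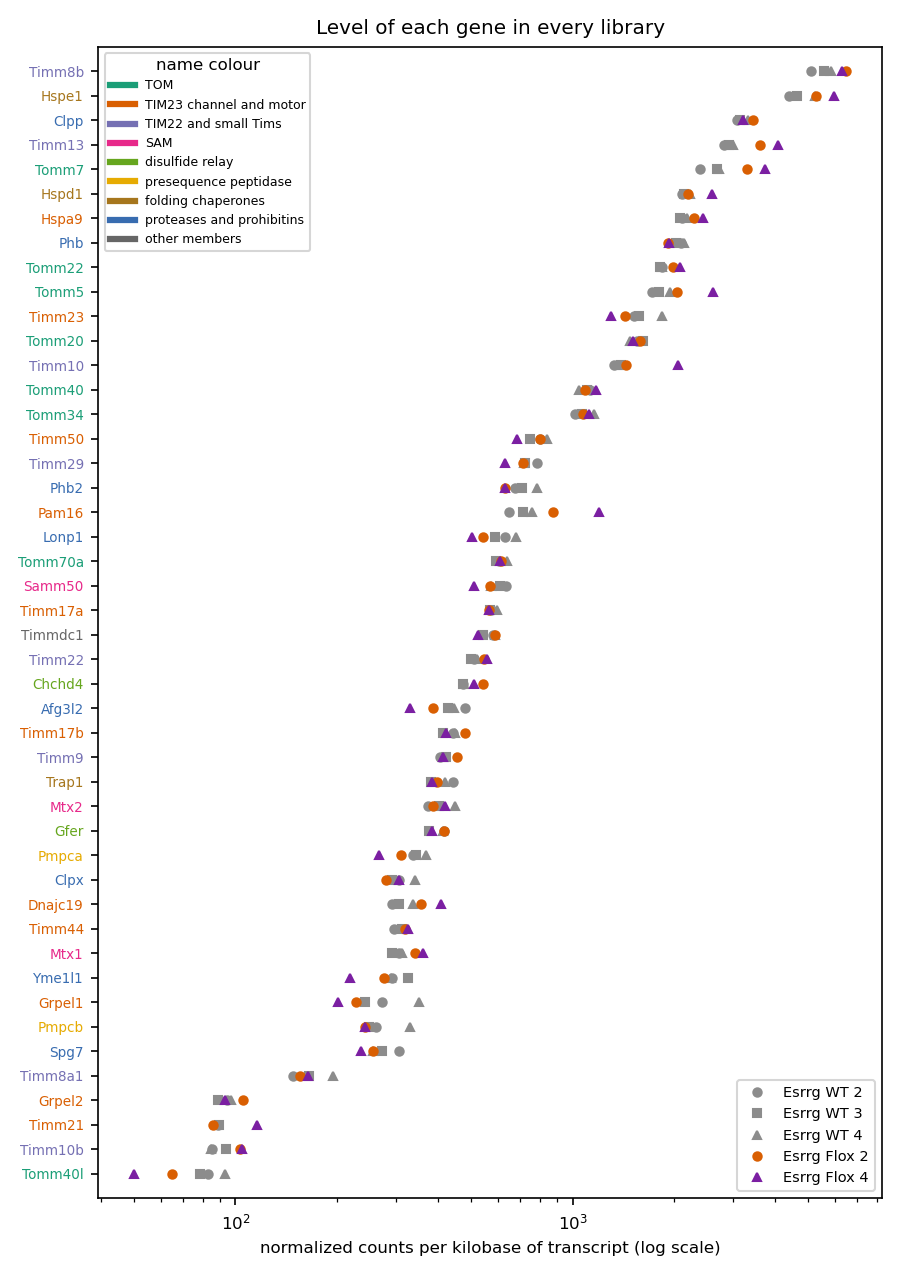
Level of the 46 genes tested in each library, as normalized counts per kilobase of the longest transcript (log axis), ordered by the WT mean, with gene names coloured by role. Timm8b and Hspe1 lead and Tomm40l is lowest, though reads in its shared exons are not counted. The spread between genes is far wider than that between genotypes.

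Genes that act in pairs or are paralogues were compared as log2 ratios within each library, in which the size factor cancels. Of 11 pairs, 5 did not overlap between genotypes. Among all single genes tested, 19.9% had both Flox libraries above all WT libraries and 22.5% had both below. No such share was computed for ratios of other genes, so whether the count is particular to these pairs was not tested. The exact permutation test (two-sided) of 3 against 2 libraries cannot go below p = 0.1, so no pair could pass at 0.05. The log2 ratio of Tomm40 to Tomm40l was 3.004, 3.04 and 2.72 in WT and 3.29 and 3.78 in Flox, a difference of 0.62 (exact permutation p = 0.1, adjusted 0.275 over the 11 pairs). Per kilobase, Tomm40 was 12.97 times as abundant as Tomm40l in WT and 20.1 times in Flox. Reads in shared exon bases (64.3% of Tomm40l and 5.72% of Tomm40) are not counted, so both ratios are inflated by an unknown amount. For Grpel1 over Grpel2 the ratio was 1.33, 1.25 and 1.66 in WT and 0.92 and 0.92 in Flox, a difference of -0.49 (exact permutation p = 0.1, adjusted 0.275). Both Flox libraries gave nearly the same value, and Grpel1 went from 3.07 to 2.17 times the level of Grpel2 per kilobase. The ratio of Timm8a1 to Timm8b differed by -0.29 and that of Afg3l2 to Spg7 by -0.16 (exact permutation p = 0.1 each, adjusted 0.275), and that of Mtx1 to Mtx2 by 0.22 (exact permutation p = 0.2, adjusted 0.44). The remaining 6 pairs (Timm17a and Timm17b, Timm9 and Timm10, Clpp and Clpx, Hspd1 and Hspe1, Pmpca and Pmpcb, Phb and Phb2) overlapped, with differences from -0.26 to 0.15. For Timm9 and Timm10 the value of Flox replicate 4 alone (-0.42) stood apart from the other 4 libraries (0.15 to 0.23).

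**Figure D4:**
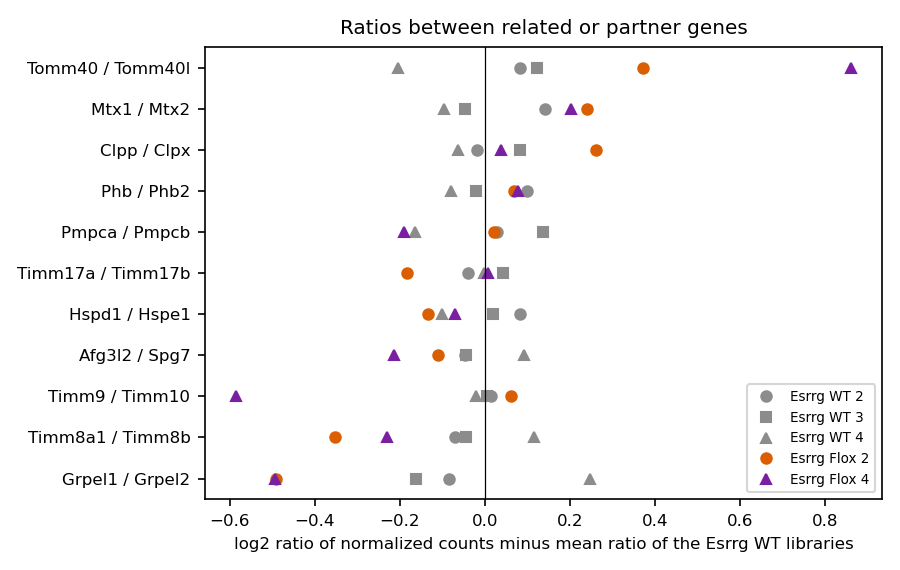
Log2 ratio of normalized counts of 2 related or partner genes in each library, minus the mean ratio of the 3 Esrrg WT libraries (x axis), 1 row per pair. Flox points (orange, purple) lie beyond all WT points (grey) for Tomm40 over Tomm40l and Mtx1 over Mtx2 on the right and for Grpel1 over Grpel2, Timm8a1 over Timm8b and Afg3l2 over Spg7 on the left.

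Fold change went with transcript length. Across the 46 genes, Spearman's rho between the length of the longest transcript and the log2 fold change was -0.52 (-0.46 with Flox replicate 2 alone and -0.50 with Flox replicate 4 alone), against -0.23 across 15705 genes. Genes are not independent replicates, all points share the same 5 libraries, and no p is given. The 16 shortest genes (518 to 1799 bases) had a median log2 fold change of 0.18, with 10 above and 6 below 0, and held all 3 genes called higher. The 15 longest (3170 to 7280 bases) had a median of -0.17, with 3 above and 12 below 0, and held the 1 called lower. All tested genes in the same length ranges had medians of 0.15 and -0.06, with 10.1% and 2.26% called higher and 1.28% and 5.78% called lower. Of these genes, 68.7% in the shortest and 40.0% in the longest range had a log2 fold change above 0. The 15 of middle length (2302 to 3135 bases) had a median of 0.05, beside -0.01 over all genes in that range. Many small Tim and small TOM genes are short and many protease genes long, so role and length cannot be told apart. With the trend on length removed from the fit, rho among the 46 genes was -0.18, Pam16 kept its call (log2 fold change 0.48, DESeq2 adjusted p = 0.0218), and Tomm7, Timm13 and Tomm40l did not pass (DESeq2 adjusted p = 0.0636, 0.0629 and 0.0736). The log2 fold change moved from 0.44 to 0.29 for Tomm7 and from 0.40 to 0.26 for Timm13, and from -0.56 to -0.49 for Tomm40l. GC content had a rho of -0.10 with the log2 fold change among the 46 genes.

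**Figure D5:**
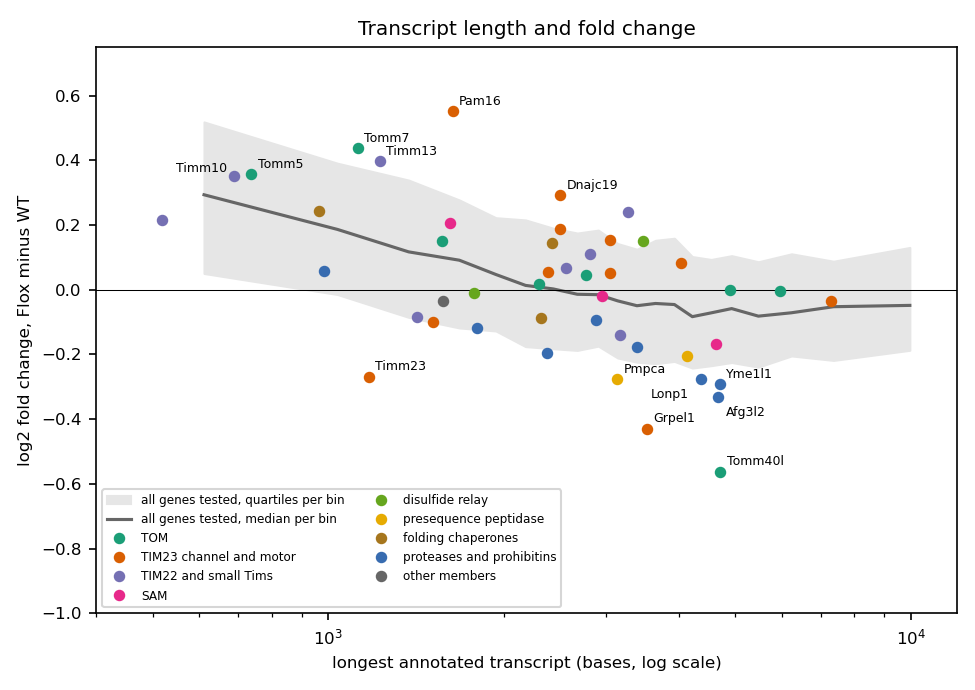
Log2 fold change, Flox minus WT (y axis), against the length of the longest annotated transcript in bases (log x axis) for the 46 genes, coloured by role; the line and band are the median and quartiles of all tested genes in bins of length. Pam16, Tomm7 and Timm13 lie above the band or at its upper edge among short transcripts, and Tomm40l lies below it.

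Genes that work beside this machinery were taken from a separate list of 36, all tested, of which 1 was called higher (2.78%, against 4.20% of all genes) and 2 lower (5.56%, against 4.05%), with a median log2 fold change of -0.12. Both Flox libraries lay above WT in 7 (19.4%, against 19.9%) and below it in 16 (44.4%, against 22.5%). edgeR called none of them (13 at an unadjusted p under 0.05). Romo1, a small inner membrane protein that works with the import channels, had 2456, 2590.4 and 2788 normalized counts in the WT libraries and 3329.6 and 4102 in the Flox libraries. It was called higher (log2 fold change 0.51 with SE 0.124, adjusted p = 0.00214 by DESeq2), and its transcript of 569 bases is among the shortest. With the length trend removed it did not pass (log2 fold change 0.23, DESeq2 adjusted p = 0.198). Mtx3, a metaxin paralogue, had 1122, 1069 and 1268 normalized counts in WT and 915 and 778 in Flox and was called lower (log2 fold change -0.45 with SE 0.137, adjusted p = 0.0219 by DESeq2), but not with the length trend removed (log2 fold change -0.38, DESeq2 adjusted p = 0.077). Pitrm1, the protease that degrades cleaved presequences, had 353, 283 and 388 normalized counts in the 3 WT pools and 252 and 163 in the 2 Flox pools. It was called lower and was the 1 gene of both lists past 1.5-fold (log2 fold change -0.72 with SE 0.227, adjusted p = 0.0265 by DESeq2). The Flox pools differed widely, and without Flox replicate 4 its log2 fold change was -0.44, under 1.5-fold. The cristae organizer gene Immt had 2329, 2385 and 2050.3 normalized counts in WT and 2359 and 2166 in Flox, with overlap (log2 fold change 0.01, DESeq2 adjusted p = 0.99). Of stress-linked genes, the stress-activated protease gene Oma1 was at -0.28 and Atf5, a regulator of the mitochondrial unfolded protein response, at 0.17 on the log2 scale (DESeq2 adjusted p = 0.584 and 0.552), both with overlap. None of the 5 stress response regulators or of the 7 cristae organizing genes on the list was called. Among the regulators, singled out after their values were seen, Cebpb and Atf4 had both Flox libraries above WT and Hsf1 both below (log2 fold changes 0.45, 0.18 and -0.32, DESeq2 adjusted p = 0.231, 0.332 and 0.204), and Ddit3 overlapped. Apoo, a cristae organizing gene also singled out afterwards, was at -0.36 (DESeq2 adjusted p = 0.0832) and was called lower with the length trend removed (log2 fold change -0.49, DESeq2 adjusted p = 0.00512).

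The calls were not kept in every fit that left out 1 library. No share of all genes called is given for these fits, so whether their counts are particular to these genes was not tested. Without Flox replicate 4 none of the 46 genes was called (2 had an unadjusted p under 0.05), and leaving out WT replicate 2 also left none (6 had an unadjusted p under 0.05). Without Flox replicate 2, 8 were called, the 4 named above with Afg3l2, Tomm5, Yme1l1 and Timm10 in addition. Tomm40l also lost its call without WT replicate 3 or WT replicate 4 (DESeq2 adjusted p = 0.108 and 0.132), and Timm13 without WT replicate 3 (DESeq2 adjusted p = 0.0633). The fold changes themselves moved little there, to -0.62 and -0.49 for Tomm40l and to 0.40 for Timm13 on the log2 scale. Without WT replicate 2 they were 0.38 for Tomm7, 0.37 for Timm13, 0.49 for Pam16 and -0.58 for Tomm40l, and without Flox replicate 4 they were 0.34, 0.30, 0.30 and -0.39. Romo1, Mtx3 and Pitrm1 were not called either without Flox replicate 4 or without WT replicate 2, nor were Mtx3 and Pitrm1 without WT replicate 4 or Mtx3 without WT replicate 3. All 4 called genes kept their direction in each of the 11 alternative fits.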

How the data were processed

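The authors deposited raw read counts per gene for each library, made from poly(A)-selected, unstranded reads with STAR and HTSeq. The study's methods name GRCm38.p6, whereas the submitters' processing notes list GRCm39, STAR 2.7.9a and HTSeq 0.11.3, so no gene coordinates are taken from the table. Between 5.62% and 5.78% of reads overlapped several genes and 3.60% to 4.23% aligned to several places, and neither are in any gene's count, so genes with near-identical copies lose an unknown share of reads. Of 53700 IDs, 97.1% were named by ID without version from GENCODE M21, which also gave transcript lengths.

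DESeq2 1.42.0 in R 4.3.3 was fitted to all 29407 genes with at least 1 count (median-ratio size factors, two-sided Wald test, Benjamini-Hochberg over 15724 genes left by independent filtering), genotype being the only term. Called means an adjusted p under 0.05. Alternatives were edgeR 4.0.16 (quasi-likelihood test, a minimum of 10 counts in 2 or more libraries), TMM, that filter in DESeq2, a replicate block, a length or GC trend removed, and each library left out. Scripts were tested on simulated counts. Pools are the replicates, libraries differed by 4.25 to 45.8 chi-square per degree of freedom, and intervals from counting error alone are not given. Genes described in full were those called, the extremes of level, those at almost no counts, pair members and a named core list. The members and lists were chosen with earlier results of these data known.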

Additional observations from a re-analysis of the deposited data

How the results depend on the processing

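Of the 46 import genes, the total called (4) became 0 with edgeR, 2 with the replicate number as a block, 2 with the length trend removed and 0 with a 1.5-fold limit, and ran from 0 to 8 when each library was left out in turn (with TMM library sizes, a low-count filter or the GC trend removed it was 4). Genes called higher (3) became 0 with edgeR and 1 with the length trend removed, and ran from 0 to 5 without single libraries. The 1 called lower became 0 with edgeR and with the block, and ran from 0 to 3, and with the length trend removed it was Timm23 in place of Tomm40l. The 3 calls among the other 36 genes became 0 with edgeR, 1 with the block and 1 with a 1.5-fold limit, and ran from 0 to 4. With the length trend removed they were 2, Pitrm1 and Apoo, while Romo1 and Mtx3 did not pass. The median log2 fold change of the 46 genes ran from -0.0095 to 0.039 over all these settings. The rho with transcript length was -0.18 with the trend removed and ran from -0.56 to -0.47 without single libraries, and the pairs that did not overlap numbered from 6 to 9 there, where fewer libraries leave less room to overlap. The replicate numbers were not taken as pairs: deviations of same-numbered libraries from their group means correlated at 0.0946 (number 2) and 0.0893 (number 4) over 16711 genes, and only 2 pairs exist. Deviations of the 2 Flox libraries from their mean mirror each other. The values across numbers 2 and 4 are therefore the same with the sign turned (-0.0946 and -0.0893) and are no separate check. Signs turned only in genes not called and at most 0.21 from 0. The log2 fold changes were Mtx2 0.010, Timm8b -0.070, Timm17a 0.025, Tomm20 0.074, Tomm70a 0.065 and Clpp -0.12 with the length trend removed, Tomm20 0.0026 and Tomm70a 0.00045 with the low-count filter, Tomm20 0.030 with the block, Gfer 0.0063 with the GC trend removed and Immt -0.0030 with TMM library sizes. Without single libraries they ran as follows for the genes that turned: Mtx2 -0.081 to 0.052, Timm8a1 -0.17 to 0.024, Timm9 -0.0013 to 0.13, Grpel2 -0.010 to 0.16, Timm17b -0.041 to 0.14, Timm21 -0.045 to 0.39, Timm50 -0.22 to 0.0056, Tomm20 -0.037 to 0.029, Tomm34 -0.027 to 0.071, Tomm40 -0.014 to 0.10, Tomm70a -0.028 to 0.027, Gfer -0.070 to 0.043, Timmdc1 -0.13 to 0.046 and Immt -0.062 to 0.062. Of the other 36 genes only Immt is in these lists. Ddit3 also turned, to -0.035 with the length trend removed and to -0.0094 without Flox replicate 4, as did further genes not named in the text. The cause of these changes was not tested. Apart from edgeR and the 1.5-fold limit, no share of all genes called is given for these settings. Whether the changes in count are particular to these genes was not tested either. With 2 Flox libraries, leaving out 1 leaves a lone library that is assumed to vary like the WT libraries.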
